A study of Bos taurus with 8 samples.

Results

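The genes described here are cytochromes P450 and flavin-containing monooxygenases (FMOs) of bovine rumen, taken by gene name from the deposited count table. A name had to be CYP followed by family number, subfamily letter and member number, or FMO followed by a digit, with at least 1 count over the 8 libraries. CYP1A1, CYP1B1, CYP51A1 and the CYP26 genes were left out. From the table of 33132 genes 37 matching names are reported, and 34 of them had a count, 30 P450s and 4 FMOs. CYP4A22, CYP7A1 and CYP2E1 matched by name and had no count. The members were chosen by name, with earlier results of these data known. The rumen is the large fermentation chamber of the cattle forestomach, lined by a stratified squamous epithelium. One group was 4 newborn male calves and the other was 4 adult steers, which are castrated males. All 8 animals were angus crosses, and 1 RNA library was made from the rumen tissue of each. No label gives a treatment, diet, batch or exact age. Age and castration differ between the groups together, so their parts in any difference cannot be told apart.

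Cytochromes P450 are haem enzymes that insert an oxygen atom into lipophilic molecules, with electrons passed to them by P450 oxidoreductase in the endoplasmic reticulum or by ferredoxin in mitochondria. Families CYP2 and CYP3 act mainly on drugs, plant compounds and other foreign molecules, and other families act on fatty acids, sterols, bile acids, vitamin D and steroid hormones. FMOs use a bound flavin to oxidise nitrogen and sulfur atoms of amines and thioethers. Both families are best known from the liver, and several members are also made in surface epithelia.

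Library totals ran from 42322022 to 54449684 counts. Levels are given as CPM, the usual scaling of counts by library size, with sizes corrected by TMM (a factor that evens out library composition), and changes as log2 fold change, steer minus calf. CPM is not corrected for gene length, so levels are compared between animals and not between genes. A change was called at a Benjamini-Hochberg adjusted p under 0.05 in edgeR's quasi-likelihood test over 16326 genes. With 4 animals per group, these p-values weigh each group difference against the variation between the animals sampled. The estimate of that variation borrows from all tested genes. The tissue is a mixture of cell types, and fewer cells of a type cannot be told apart from less RNA per cell. Summed markers of upper squamous layers were 36340 to 89040 CPM in calves and 220.2 to 951.9 CPM in steers. Of the 7 listed genes in the table, 5 were lower in steers. KRT10 was not called (edgeR adjusted p = 0.648). KRT1 was too scarce to test, at 0 in all steers and in calves 2 and 3, with 12 counts over all calves. Summed smooth muscle markers were 4018 to 12410 CPM in calves and 9417 to 90410 CPM in steers, with 5 of 8 genes higher. Steer 4 had the 9417, and the other steers had 45660 or more. The sum of basal keratinocyte markers overlapped, at 11520 to 16970 CPM in calves and 8142 to 15710 CPM in steers, while of its 7 genes KRT14 was higher and COL17A1 lower in steers. The part of these tissue differences in the results on P450 and FMO genes was not tested.

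Of the 34 genes, 26 passed the filter on low counts, and 12 of these differed between the groups. Of the 12, 9 were lower in steers, namely FMO1, FMO2, CYP2B6, CYP2C18, CYP2C87, CYP2S1, CYP4B1, CYP27A1 and CYP27C1. The 3 higher genes were CYP2D14, CYP2J2 and CYP4F2. The lower genes were 34.6% of the members tested, where 9.16% of all tested genes were lower, and the higher genes were 11.5%, where 7.7% of all tested genes were higher. The median log2 change was -0.68 over the 26 genes and 0.04 over all tested genes. CPM did not overlap between the groups, with all steers lower, for 10 of the 26 genes, against 12.8% of all tested genes. All steers were higher for 3 of the 26, against 10.5% of all tested genes. At an unadjusted p under 0.05 in edgeR there were 15 of the 26 genes. The share of all tested genes at this threshold is not given here, so the 15 cannot be set against it. Each called gene differed by at least 2-fold. Scaling by library size alone moved the median log2 change of all genes by -0.11 and the share of calls that were higher from 45.7% to 34.9%, with the same 3 higher and 9 lower members.

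**Figure D1:**
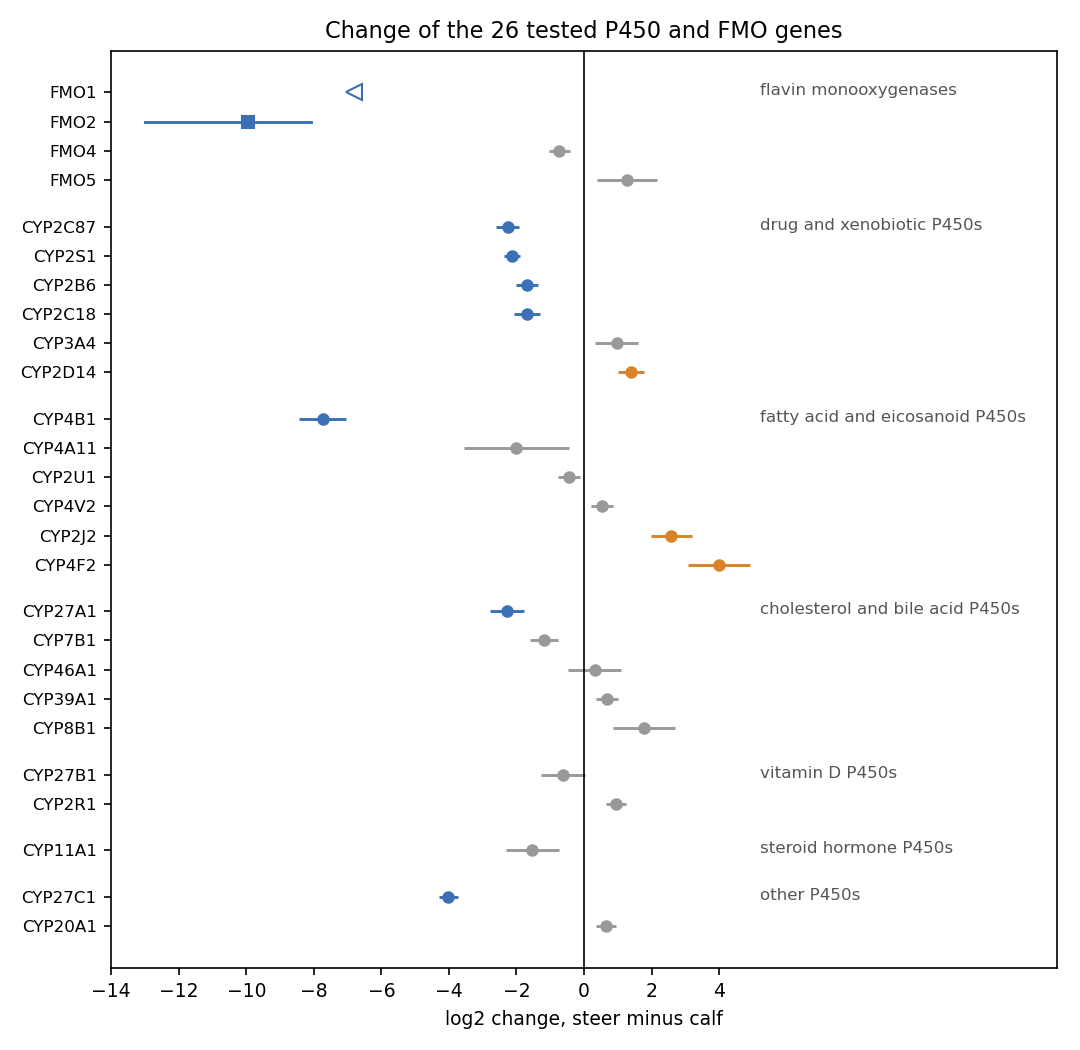
Log2 change, steer minus calf, of the 26 tested genes by role. Circles are edgeR estimates with their standard error (orange higher, blue lower, grey not called). The open triangle is the bound for FMO1, which had no count in steers. The square is the FMO2 ratio over read pairs with its 95% counting interval. FMO1, FMO2 and CYP4B1 lie left of all other genes.

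Summed over all 34 genes, calves 1 to 4 had 1028, 792, 680.5 and 587.5 CPM, and steers 1 to 4 had 332.4, 267.7, 272.1 and 474.7 CPM. Every calf was above every steer in this sum, of which the drug and xenobiotic P450s gave 403.9 to 658.9 CPM in calves and 157.6 to 299.4 CPM in steers. The sum for fatty acid and eicosanoid P450s was 36.9 to 128 CPM in calves and 24.7 to 36.7 CPM in steers, a narrow gap. CYP4B1 was most of each calf sum, with 115, 59.8, 30.4 and 19.3 CPM of 128, 82.3, 50.02 and 36.9 CPM. In steers CYP4B1 was at most 0.41 CPM, so the calves lay above the steers in this sum through CYP4B1. For cholesterol and bile acid P450s it was 31.6 to 125.2 CPM and 14.6 to 27.8 CPM. CYP27A1 was most of this sum in every library, at 24.7 to 120.8 CPM in calves and 8.28 to 24.1 CPM in steers. The FMO sum overlapped, at 34 to 67.1 CPM in calves and 10.8 to 98.7 CPM in steers, because steer 4 had a high FMO5. These sums are descriptions and were not tested.

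**Figure D2:**
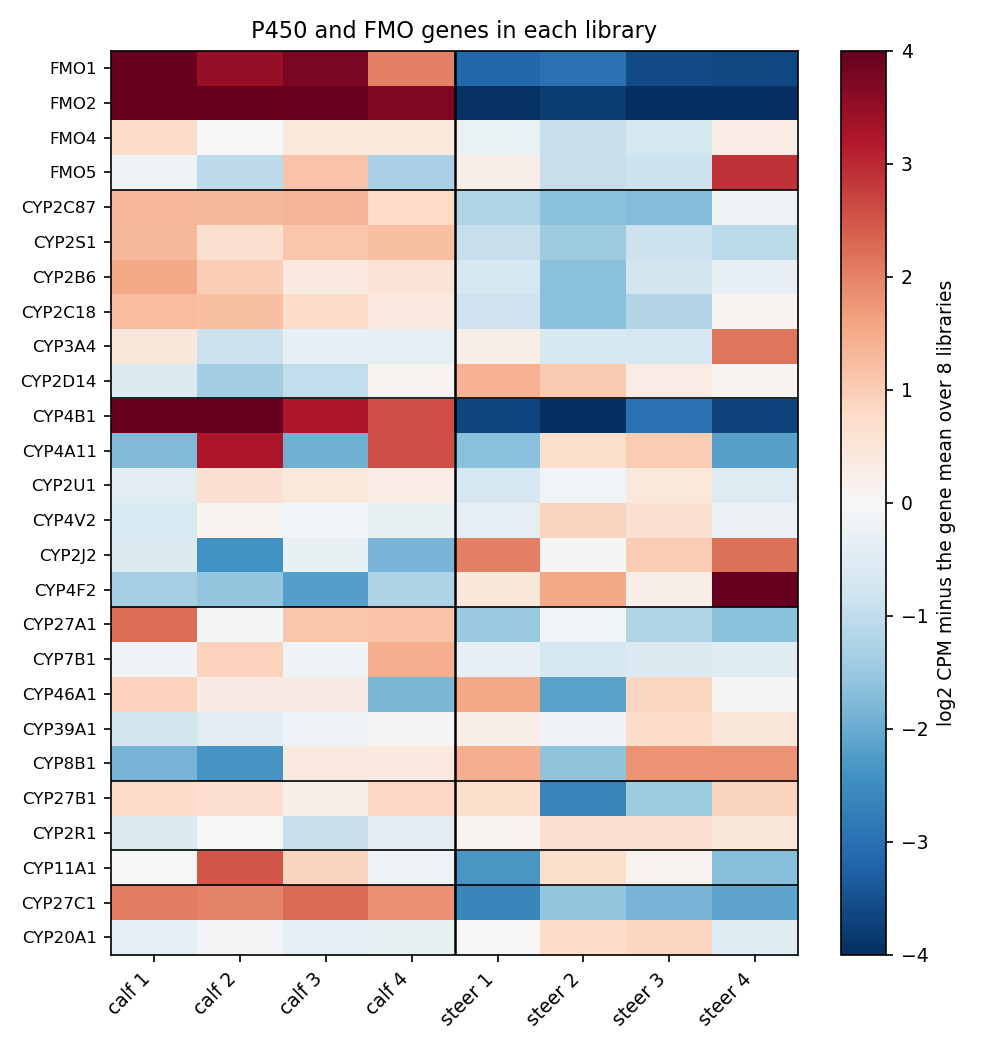
Log2 CPM of the 26 tested genes in each library minus the gene's mean over 8 libraries, with values under 3 counts set to that floor and colours ending at 4 in either direction. Rows are grouped by role. FMO1, FMO2, CYP4B1 and CYP27C1 are red in all calves and blue in all steers, and steer 4 stands out from the other steers for FMO5, CYP3A4 and CYP4F2.

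Among the FMOs, 2 of 4 were lower in steers, and they were at or near 0 there. FMO2, known mainly from lung, had 31.8, 20.6, 17.8 and 15.2 CPM in calves 1 to 4 and 0, 0, 0.0559 and 0 CPM in steers. FMO1, a broad-acting member of fetal liver and adult kidney in humans, had 10.9, 7.46, 9.01 and 2.68 CPM in calves and was at 0 in all steers. Thus all 4 calves had counts for both genes, calf 4 at the lowest level, and a single steer had 3 counts of FMO2. With a floor of 3 counts in each steer library, 0.0668 CPM on average, FMO1 was at least 112.4-fold lower in steers (edgeR adjusted p = 0.000674). FMO2 fell to 2 read pairs over all steers from 2083 over all calves, and its adjusted p in edgeR was 8.51e-05. The ratio over pairs was 981.6, with an exact interval of 271.4 to 8111 for counting error only, and without steer 3 no steer count was left.

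FMO4 and FMO5 had counts in every animal. FMO4 had 13.8, 8.38, 11.3 and 11.2 CPM in calves and 7.03, 4.40, 5.09 and 10.3 CPM in steers. Steer 4 lay among the calves and the other steers below them, and the log2 change of -0.74 ± 0.31 (SE) did not pass the test (edgeR adjusted p = 0.134). Without steer 4 it was -1.02 and passed (adjusted p = 0.0322). FMO5, which acts as a Baeyer-Villiger oxidase more than as an amine oxidase, had 10.6, 5.76, 26.6 and 4.89 CPM in calves and 14.6, 6.35, 6.65 and 88.4 CPM in steers. The groups overlapped, and steer 4 was far above the other 7 animals. The log2 change was 1.28 ± 0.89 (edgeR adjusted p = 0.364) and turned to -0.38 without steer 4.

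**Figure D3:**
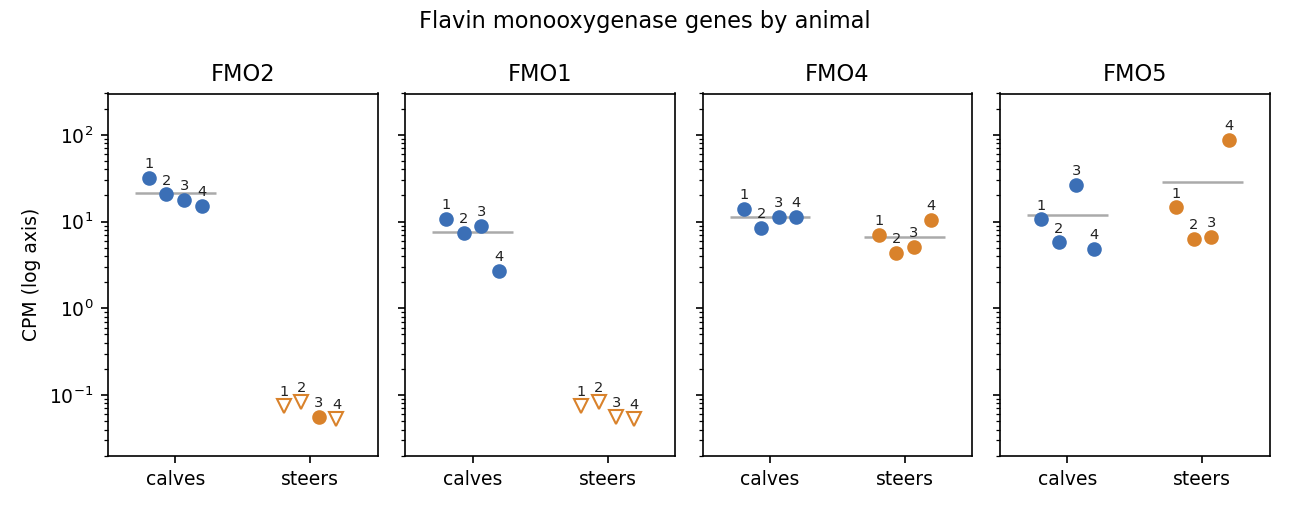
CPM on a log axis of the 4 FMO genes in each calf and steer. Digits are animal numbers, grey lines are group means where every library of the group has a count, and open triangles are libraries with no count, drawn at 3 counts. FMO2 and FMO1 drop to the floor in steers, FMO4 does not, and FMO5 reaches 88.4 CPM in steer 4.

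FMO2, FMO1 and FMO4 follow each other in this order on the plus strand of chromosome 16. Positions are those printed in the deposited table, for which no genome build is named in the sources used here. FMO2 runs from 38756046 to 38800243, FMO1 from 38801860 to 38849076 and FMO4 from 38865159 to 38904117. FMO5 lies apart, on chromosome 3 from 22466867 to 22510021. LOC517828, which lies before FMO2 on the same strand, had 33 counts in calves and 0 in steers. It was too scarce to be tested, and with the floor of 3 counts its bound was 2.46-fold. Past FMO4 on the minus strand, LOC101902371 had 24 counts in calves and 0 in steers, and LOC104974427 had 0 and 6. Neither was tested. Within each library, FMO1 was 0.239 to 0.89 times FMO4 by counts in calves and FMO2 1.35 to 2.46 times. In steers the highest such ratio was 0.011, for FMO2, and that of FMO1 was 0. On the log2 scale with 1 count added, the ratios to FMO4 were lower in steers by differences of -7.46 and -8.58 for FMO1 and FMO2. These ratios were chosen after the values had been seen and are a description with no test. Reads lying in more than 1 gene were dropped by the authors' counting, and 24.5% of the FMO4 span is shared with LOC107133234, while FMO1 and FMO2 share none.

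Of 10 P450s of drug and xenobiotic subfamilies, 6 were tested, 4 were lower in steers and 1 was higher. CYP2C18, a CYP2C enzyme made outside the liver in human tissue, had 396.6, 386.4, 282.4 and 223.1 CPM in calves and 95.2, 53.4, 75 and 178.3 CPM in steers. All calves were above all steers, with steer 4 nearest to them. The log2 change was -1.68 ± 0.38 (edgeR adjusted p = 0.015), from a mean of 322.1 ± 83.8 to 100.5 ± 54.7 CPM (SD, n = 4 per group). CYP2C87, another CYP2C gene downstream of it on chromosome 26, had 57.2, 55.7, 58.8 and 39.3 CPM in calves and 9.95, 7.27, 6.85 and 19.8 CPM in steers. Again no steer reached a calf, and the log2 change was -2.26 ± 0.35 (edgeR adjusted p = 0.00283). CYP2C18 spans 16076048 to 16117385 and CYP2C87 spans 16144354 to 16208922, both on the plus strand. CYP2C18 shares 5.9% of its span with LOC101902226, and CYP2C87 shares 10.5% with TRNAS-GGA and LOC112444533. LOC112444533 had a log2 change of -0.98 ± 0.61 (edgeR adjusted p = 0.31). HELLS, before CYP2C18, had -0.49 ± 0.44 (adjusted p = 0.489). Past CYP2C87, LOC540627 was called lower in steers, at -2.15 ± 0.61 (adjusted p = 0.0377). LOC505468 was lower in all steers but not called, at -1.14 ± 0.48 (adjusted p = 0.133).

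CYP2B6, of a subfamily that is inducible by phenobarbital in liver, had 149.5, 102.6, 68 and 74.8 CPM in calves and 32.8, 16.4, 31.4 and 41.9 CPM in steers. CYP2S1, a P450 of epithelia that face the outside, had 26, 16.4, 22.7 and 24.6 CPM in calves and 5.65, 3.95, 5.9 and 5.05 CPM in steers. Neither gene overlapped between the groups, and the steers were close together for CYP2S1. CYP2B6 fell by 1.69 ± 0.34 on the log2 scale (edgeR adjusted p = 0.00887), and CYP2S1 fell by 2.13 ± 0.23 (adjusted p = 0.000485). They lie in the same stretch of chromosome 18, CYP2B6 from 50290689 to 50308034 on the minus strand and CYP2S1 from 50379592 to 50393568 on the plus strand. AXL, a receptor tyrosine kinase gene just past CYP2S1, had a log2 change of -0.30 ± 0.33 (adjusted p = 0.585). The pseudogene LOC789569 shares 3.8% of the CYP2B6 span. It had 3.83 ± 2.57 CPM in calves and 1.2 ± 0.939 CPM in steers. Reads of similar copies may be split or lost, which was not tested.

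CYP2D14, the bovine gene of the subfamily that oxidises basic amine drugs, went the other way. It had 24.2, 13.6, 17.8 and 38.6 CPM in calves and 92.7, 73.6, 43.5 and 37.6 CPM in steers, a log2 change of 1.39 ± 0.39 (edgeR adjusted p = 0.0349). Calf 4 was slightly above steer 4, so the groups overlapped. The call was lost without calf 1, calf 2, calf 3, steer 1 or steer 2, with adjusted p-values from 0.0683 to 0.0898. CYP3A4, of the subfamily that handles the widest range of drugs in liver, had 5.15, 2.09, 3.03 and 2.95 CPM in calves and 4.45, 2.42, 2.37 and 16.5 CPM in steers. All animals but steer 4 lay in one range, and the log2 change of 0.96 ± 0.63 (adjusted p = 0.333) was -0.10 without steer 4.

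The other 4 genes of these subfamilies had too few counts to be tested. CYP3A5 had 71 counts over calves and 12 over steers, all steers below all calves in CPM, and joins 2 loci under 1 name. CYP3A24 had 20 and 38 counts, CYP2C19 8 and 2, and CYP1A2 0 and 2. The summed hepatocyte markers were 23.1 to 47.4 CPM in calves and 1.64 to 4.5 CPM in steers, with 2 of 7 genes lower. APOA1 was most of this sum in all libraries but steer 4, where it was level with TTR at 1.61 CPM. ALB was 0.1 to 0.209 CPM in calves and 0 in steers, and APOB and FGA were at 0 in all libraries.

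**Figure D4:**
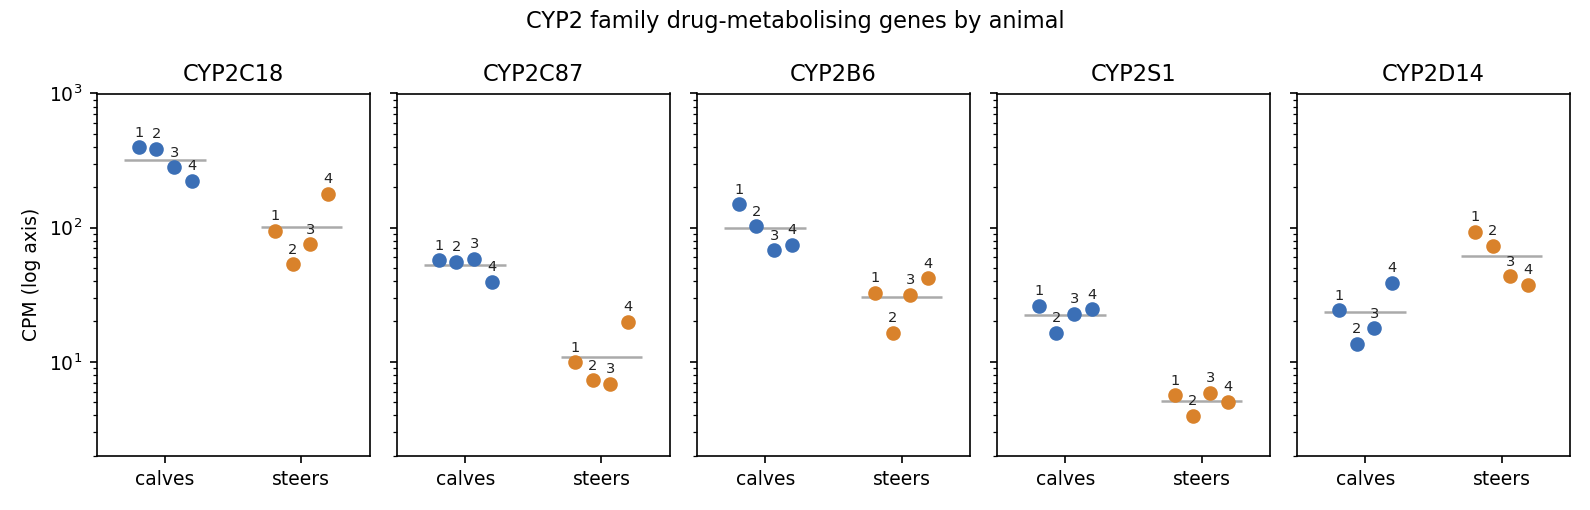
CPM on a log axis of 5 CYP2 genes of drug-metabolising subfamilies in each calf and steer. Digits are animal numbers and grey lines are group means. CYP2C18, CYP2C87, CYP2B6 and CYP2S1 are lower in every steer than in every calf, and CYP2D14 is higher in steers with 1 overlap.

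All 6 P450s of fatty acid and eicosanoid subfamilies were tested, with 1 lower and 2 higher in steers. CYP4B1, which hydroxylates short and medium-chain fatty acids and activates the plant toxin 4-ipomeanol, had 115, 59.8, 30.4 and 19.3 CPM in calves and 0.25, 0.111, 0.41 and 0.246 CPM in steers. The calves differed widely, yet the lowest of them was far above every steer. The log2 change was -7.74 ± 0.70 (edgeR adjusted p = 0.000238), a ratio of means of 220.8, and it was -7.12 without calf 1. CYP4B1 lies on the minus strand of chromosome 3 from 99338370 to 99358593 and shares no span with another gene. EFCAB14, the next protein-coding gene with counts downstream in coordinate order, had 31.6 ± 5.54 CPM in calves and 33.3 ± 11.4 CPM in steers.

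CYP2J2, an epoxygenase that makes epoxyeicosatrienoic acids from arachidonic acid, had 2.1, 0.586, 2.57 and 0.878 CPM in calves and 12.8, 3.01, 6.33 and 14.6 CPM in steers. All steers were above all calves, steer 2 by little. The log2 change was 2.59 ± 0.61 (edgeR adjusted p = 0.0186), and the call was lost without calf 4 (adjusted p = 0.0521). CYP4F2, which hydroxylates leukotriene B4 and vitamins E and K in human liver, had 0.233, 0.201, 0.126 and 0.251 CPM in calves and 0.8, 1.67, 0.708 and 9.92 CPM in steers. The groups did not overlap, but steer 4 was well above the other steers. The log2 change was 4.00 ± 0.92 (edgeR adjusted p = 0.0165), and it was 2.37 without steer 4 (adjusted p = 0.0181). With limma-voom the adjusted p was 0.0779. The name joins 2 loci on chromosome 7, so its counts may come from either.

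The other three members did not pass the test. CYP4A11, a fatty acid omega-hydroxylase, had 0, 2.23, 0 and 1.42 CPM in calves and 0, 0.39, 0.484 and 0.0351 CPM in steers. Calves 2 and 4 had counts and calves 1 and 3 had none, and the groups overlapped, with a log2 change of -2.00 ± 1.55 (edgeR adjusted p = 0.417). It was -1.06 without calf 2, -2.73 without steer 3 and -0.63 with limma-voom. The same pair of calves stood out for the adipocyte hormone ADIPOQ, with 41.7 and 45.9 CPM, against 0.0932 and 1.35 CPM in calves 1 and 3 and 0.246 to 0.445 CPM in steers. The summed adipocyte markers were 38.1 to 555.6 CPM in calves and 201.7 to 495.6 CPM in steers, with 1 of 6 genes lower. Calves 2 and 4 were above calves 1 and 3 for each of the 6, but FABP4 and PLIN4 did not set them apart from steers. FABP4 had 57.1 and 394.3 CPM in calves 2 and 4 and 21.6 to 429.9 CPM in steers. PLIN4 had 72.6 and 54.7 CPM in these calves and 34.1 to 174.2 CPM in steers. LEP was at 0 in calves 1 and 3 and steers 3 and 4, CIDEC was at 0 in calf 1, and the part of these markers in the CYP4A11 values was not tested. CYP4V2, an omega-hydroxylase of the eye and other tissues, had means of 7.4 and 10.6 CPM in calves and steers, and the broadly made CYP2U1 had 8.15 and 6.03 CPM.

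**Figure D5:**
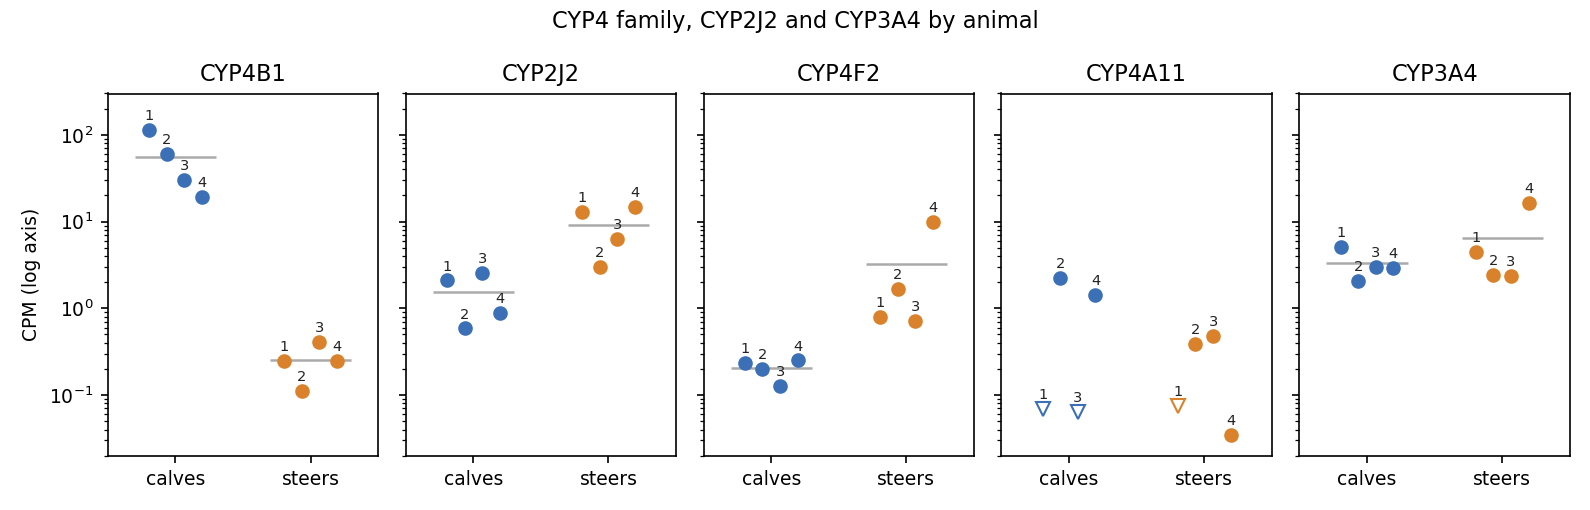
CPM on a log axis of CYP4B1, CYP2J2, CYP4F2, CYP4A11 and CYP3A4 in each calf and steer. Digits are animal numbers, grey lines are group means where every library has a count, and open triangles are libraries with no count, drawn at 3 counts. CYP4B1 is lower in all steers, CYP2J2 and CYP4F2 are higher in all steers, and steer 4 leads the steers for CYP2J2, CYP4F2 and CYP3A4.

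Among 5 tested P450s of cholesterol and bile acid metabolism, 1 was lower in steers and none was higher. CYP27A1, the mitochondrial sterol 27-hydroxylase, had 120.8, 24.7, 55.2 and 57.1 CPM in calves and 9.1, 24.1, 11.2 and 8.28 CPM in steers. Calf 2 was barely above steer 2, and the other animals were well separated. The log2 change was -2.29 ± 0.51 (edgeR adjusted p = 0.0137). CYP7B1, the oxysterol 7-alpha-hydroxylase that acts after CYP27A1, had 2.24, 4.65, 2.19 and 6.78 CPM in calves and 1.95, 1.56, 1.64 and 1.75 CPM in steers. The groups did not overlap, but the log2 change of -1.20 ± 0.41 missed the threshold (edgeR adjusted p = 0.0765; DESeq2 gave 0.0235). CYP39A1, a 24-hydroxycholesterol 7-alpha-hydroxylase, had means of 1.9 and 3.02 CPM in calves and steers. CYP46A1, the brain cholesterol 24-hydroxylase, had 0.434 and 0.541 CPM, and the sterol 12-alpha-hydroxylase CYP8B1 had 0.188 and 0.636 CPM. The edgeR adjusted p-values of these 3 ran from 0.192 to 0.824.

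Of 3 vitamin D P450s, 2 were tested and neither was called. CYP2R1, a vitamin D 25-hydroxylase, had 2.28, 3.35, 1.77 and 2.51 CPM in calves and 3.7, 5.43, 5.2 and 4.73 CPM in steers. All steers were above all calves, and the log2 change of 0.94 ± 0.30 lay just beyond the threshold in edgeR (adjusted p = 0.0579). It passed with DESeq2 (0.00744), with limma-voom (0.0489) and without calf 2 (0.0443). CYP27B1, the 1-alpha-hydroxylase that makes the active hormone, had 3.49, 3.35, 2.44 and 3.7 CPM in calves and 3.4, 0.334, 0.782 and 3.86 CPM in steers. Steers 1 and 4 were level with the calves and steers 2 and 3 were lower (edgeR adjusted p = 0.558). CYP24A1, which inactivates vitamin D, was too scarce to test, with 0 counts in calves and 12 in steers.

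Steroid hormone P450s were scarce. CYP11A1, the cholesterol side-chain cleavage enzyme, had 1.26, 7.03, 2.32 and 1.13 CPM in calves and 0.25, 2.06, 1.38 and 0.386 CPM in steers. The groups overlapped, calf 2 was the highest animal, and the log2 change was -1.53 ± 0.79 (edgeR adjusted p = 0.218). Without calf 2 it was -0.63. The other three were not tested. CYP17A1 (17-alpha-hydroxylase) had 12 counts over calves and 0 over steers, CYP19A1 (aromatase) had 6 and 0, and CYP11B1 (11-beta-hydroxylase) had 2 and 4.

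The last 2 genes are P450s of less common families. CYP27C1, a retinol desaturase that is made in human skin, had 25.3, 24.5, 29.8 and 21.7 CPM in calves and 1, 2.12, 1.71 and 1.44 CPM in steers. Both groups were tight and far apart, with a ratio of means of 16.2. CYP27C1 fell by 4.01 ± 0.28 on the log2 scale (edgeR adjusted p = 8.51e-05). Its span on chromosome 2, from 5297587 to 5319388, is not shared with another gene. CYP20A1, a P450 with no settled substrate, had 16.2, 19.9, 16.1 and 16.9 CPM in calves and 21.2, 34.4, 37.7 and 14.8 CPM in steers. Steer 4 was the lowest of all animals, and the log2 change was 0.64 ± 0.29 (edgeR adjusted p = 0.163). Without steer 4 it was 0.85 and passed (adjusted p = 0.0331).

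The proteins that serve P450s were read from lists of genes. Of 12 electron donors and their partners, 1 was lower (8.33%), 1 was higher (8.33%), and the median log2 change was 0.27. These shares were near the 9.16% lower and 7.7% higher of all tested genes. POR, the reductase that feeds all P450s of the endoplasmic reticulum, had 88.3, 95.5, 104.9 and 93.5 CPM in calves and 41, 30.1, 28.7 and 42.1 CPM in steers. FDX1, the ferredoxin that feeds mitochondrial P450s, had 22.3, 21, 24.7 and 29.6 CPM in calves and 53.2, 37.6, 44.4 and 59.9 CPM in steers. The groups were apart for both genes, in opposite directions. POR fell by 1.43 ± 0.19 on the log2 scale (edgeR adjusted p = 0.00139), and FDX1 rose by 1.00 ± 0.21 (adjusted p = 0.0104). None of the 8 haem synthesis genes was called by edgeR. At an unadjusted p under 0.05 there was 1, with no share of all tested genes to set beside it. Their median log2 change was 0.27, and the most abundant by CPM, ALAD, had 125.3 ± 35.6 CPM in calves and 139 ± 43.7 CPM in steers.

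Of 4 epoxide hydrolases, which open the epoxides that P450s make, 3 were tested and 1 was lower. EPHX2, the soluble hydrolase of fatty acid epoxides, had 72, 45.7, 49.8 and 73.1 CPM in calves and 28.7, 23, 20.5 and 23.8 CPM in steers. No steer reached a calf, and the log2 change was -1.33 ± 0.22 (edgeR adjusted p = 0.00366). Of 16 receptors and factors that regulate P450 genes, 11 were tested, 2 were lower (18.2%, where 9.16% of all tested genes were lower), none was higher (7.7% of all tested genes), and the median log2 change was 0.27. The retinoid receptor RXRG had 0.978, 3.95, 2.4 and 16.1 CPM in calves and 0.55, 0.891, 0.671 and 0.491 CPM in steers. Calf 4 was far above the rest, and the log2 change of -3.17 ± 0.79 (edgeR adjusted p = 0.0229) was -1.91 without it. The call was lost without steer 1 (adjusted p = 0.0594), without steer 3 (0.0603) and with limma-voom (0.0916). NR5A2, a nuclear receptor of bile acid and steroid synthesis, had 1.58, 2.24, 1.35 and 2.68 CPM in calves and 0.25, 0.334, 0.857 and 0.21 CPM in steers. The groups did not overlap, and the log2 change was -2.23 ± 0.53 (edgeR adjusted p = 0.0192). Its call was lost without calf 4 (adjusted p = 0.0561), without steer 1 (0.0511) and without calf 2 and steer 4 together (0.0587).

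Markers of other cell types also differed between the groups. Summed fibroblast markers were 1662 to 4821 CPM in calves and 582.6 to 1382 CPM in steers, with 3 of 7 genes lower. Endothelial markers were 235.2 to 499.5 CPM and 174.1 to 256.1 CPM, with 1 of 7 lower. Markers of enteric glia and neurons were 36.6 to 50.9 CPM in calves and 14.9 to 25.1 CPM in steers, with 3 of 7 lower. None of the genes in these 3 lists was at 0 in all libraries of a group. Lymphocyte markers were 1.22 to 12 CPM in calves and 4.62 to 22.3 CPM in steers, with 2 of 6 higher and CD79B at 0 in calves. Macrophage markers were 16.8 to 20.3 CPM and 17.9 to 49.9 CPM, with 1 of 7 higher and AIF1 at 0 in all libraries. Steer 4 had the highest lymphocyte and macrophage sums of all 8 animals, as it had the highest FMO5, CYP3A4 and CYP4F2. Most of its lymphocyte sum was CD3D, at 15.5 CPM, which was not called. The called lymphocyte genes CD3E and CD2 were highest in steer 1, at 7.7 and 2.9 CPM, against 4.98 and 1.58 CPM in steer 4. CD68 was also highest in steer 1, while CSF1R, CD163, MRC1, C1QA and C1QB were highest in steer 4. The part of these markers in any P450 or FMO result was not tested.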

How the data were processed

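Rumen RNA of 8 animals was sequenced from both ends. The authors deposited raw read counts, 1 row for each gene name. Their featureCounts 2.0.2 command, per the file headers, took transcripts from end to end without a strand option. Intron reads and both mates of a pair therefore add to a count, an antisense neighbour's reads cannot be told apart, and reads in more than 1 gene were dropped. The submitters' processing notes also name Trimmomatic 0.39, STAR 2.7.11a and DESeq2 1.42.0. No genome build is named in the sources used here. Chromosome numbers come from symbols matched to an ARS-UCD2.0 table (83.37% of genes matched). Here, edgeR 4.0.16 in R 4.3.3 was used with filterByExpr, TMM scaling and robust quasi-likelihood tests, and SE is the log2 change over the square root of F. The procedure was tested on simulated data. Alternatives used DESeq2 1.42.0, limma 3.58.1, 2 further scalings, 2 filters on low counts, dispersion without the robust step, the replicate number as a block, and fits without 1 or 2 libraries. No library repeated another. Some items that the naming rule matches are not reported here and enter no count of members, though they stayed in the fit. Members and lists were chosen with earlier results of these data known. Values in every library are given for called members, tested members whose groups do not overlap and the most abundant member of each role. FMO4, CYP3A4, CYP4A11 and CYP27B1 were added after their values were seen. Of the supporting lists, called genes are named, or the most abundant gene where none was called.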

Additional observations from a re-analysis of the deposited data

Results flagged for a closer look

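In the 52 groups of 4 libraries examined for a library far from the other 3, 5 values stood apart. The rule flags about 1 in 20 groups of independent, normally distributed values. CPM need not be distributed in this way, and the genes share the same libraries, so the 5 cannot be set against that rate. Steer 4 held 3 of the 5. FMO5 was 88.39 CPM there and 6.347 to 14.55 CPM in the other steers. CYP3A4 was 16.48 CPM there and 2.365 to 4.45 CPM in the others. CYP4F2 was 9.924 CPM there and 0.7078 to 1.67 CPM in the others. CYP2C87 was 39.3 CPM in calf 4 and 55.66 to 58.77 CPM in the other calves. FMO2 was 0.05588 CPM in steer 3, which is 3 counts, and 0 in the other steers, so that any count there would stand apart and this value is no measure against that rate.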

How the results depend on the processing

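Over 17 alternatives, 2 to 4 members were higher and 8 to 10 lower in steers, each count within 1.5 times the reported 3 and 9. Leaving out 1 library gave 2 to 4 higher and 9 to 10 lower. Of the 12 called members, 8 passed the threshold in all 17 alternatives (FMO1, FMO2, CYP2B6, CYP2C18, CYP2C87, CYP2S1, CYP4B1 and CYP27C1), as did POR, FDX1 and EPHX2. CYP2D14, CYP2J2, CYP4F2 and CYP27A1 lost the call in at least 1. Direction turned, among tested members and the supporting genes named, for FMO5 without steer 4 (log2 change -0.3788) and without calf 2 and steer 4 (-0.6126), for CYP3A4 under the same 2 settings (-0.0984 and -0.2683), for CYP46A1 without steer 1 (-0.1949) and for ALAD without calf 2 (-0.0174). None of these genes was called. The cause was not tested. With 1 library left out the log2 change ran from -0.3788 to 2.0332 for FMO5 and from -0.0174 to 0.3068 for ALAD. With the replicate number as a block, 2 members were higher and 8 lower, and CYP27A1 (adjusted p = 0.0531) and CYP2D14 (0.0722) lost the call, as did RXRG (0.0772) and NR5A2 (0.0522). Same-numbered calves and steers had correlations of 0.284, 0.0961, -0.138 and -0.334 in their deviations from the group means. Differently numbered pairs ran from -0.502 to 0.438. No pairing by number was seen, and these 4 values cannot exclude one. Genes with few counts, such as CYP3A5 and CYP24A1, were not testable at this depth after filtering. Without a filter the edgeR adjusted p-values of CYP3A5 and CYP24A1 were 0.0847 and 0.0844, the lowest of the members left untested. Those of the other untested members ran from 0.187 to 0.794.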
